A study of Homo sapiens with 22 samples.

Results

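The secreted WNT ligands and their antagonists, with a receptor and a nuclear factor of the same pathway, were followed by 10 genes through the reprogramming of human fibroblasts to pluripotency. They were the ligands *WNT3*, *WNT5A*, *WNT5B* and *WNT11*, the secreted antagonists *DKK1*, *SFRP1*, *SFRP2* and *FRZB*, the receptor *FZD7* and the transcription factor *LEF1*, taken by symbol as 10 of the 33694 genes in the deposited count tables. BJ cells, an established line of human foreskin fibroblasts, were cultured in microfluidic channels and received daily transfections of messenger RNAs encoding POU5F1, SOX2, KLF4, MYC, LIN28 and NANOG. Cells were profiled by droplet-based 3′-end single-cell RNA-seq. The D0 cells were collected before the first transfection. The fibroblasts were maintained in DMEM with fetal bovine serum, and reprogramming medium was given only after D0. The D3, D5 and D7 cells were collected during the transfections, in supplemented Pluriton medium, and the D9, D11, D13 and D15 cells after the transfections had ended. StemMACS iPSBrew XF was given from D9 on, and how long the D9 cells had been in it is not stated. Each of the 8 days had 2 pools, A and B, of cells from several chips, so that there were 16 pools of 1 cell line. The paper reports a hypoxia incubator for reprogramming and gives no oxygen level for the fibroblast culture. No untransfected cells were taken after D0. Time, the start and the end of the transfections, the changes of medium and any change of oxygen thus cannot be told apart.

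After cells with fewer than 1000 detected genes or over 10% mitochondrial UMIs (unique molecular identifiers, 1 per captured RNA molecule) were removed, 41975 of 44197 barcodes remained. A pool held 571 to 6142 cells and 33181614 to 180056814 UMIs, and the median UMIs per cell of a pool ran from 23717 to 80168. The 2 libraries that shared the most barcode sequences had 41 in common, and the highest share of the smaller library was 1.63%. The D0 pools carried the fibroblast label's markers: 11 somatic genes (collagens, *LUM*, *DCN*, *THY1*, *S100A4*) summed to 11301 to 11484 CPM (UMIs per 1000000 UMIs) and 12 pluripotency genes to 4.61 to 4.74 CPM. D11 pool A and D13 pool B stood apart by a collagen. In them 73.2% and 61.5% of the cells classed as pluripotent by their markers held a *COL1A1* UMI (a fibroblast collagen) after thinning every cell to 5000 UMIs, against 18.2% to 34.2% in the other 6 late pools. The comparisons of cell classes are therefore also given without these 2 pools.

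WNT proteins are lipid-modified secreted signals that bind Frizzled receptors on the cell surface. In the canonical branch, Frizzled and an LRP co-receptor stabilise β-catenin, which enters the nucleus and acts with LEF1 and the TCF factors on target genes. WNT5A, WNT5B and WNT11 are best known for the branches that do not need β-catenin, which act on cell shape and movement, while WNT3 is a canonical ligand that drives the formation of the primitive streak, where mesendoderm arises. DKK1 blocks the LRP co-receptors. SFRP1, SFRP2 and FRZB are secreted proteins that carry a Frizzled-like domain and bind WNTs outside the cell.

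The stretches of promoter below are shown first, because *DKK1* is known as a target of the pathway it blocks and because these were the member promoters that held letters of the TCF/LEF motif. RefSeq promoters (build GRCh38.p14, from 250 bases before to 50 bases after the transcription start) were at hand for 7 of the 10 genes, as 9 promoters, and not for *WNT11*, *SFRP1* and *FZD7*. Its 4 spellings searched, on both strands, were CTTTGAA (in 4.43% of the 35116 promoters in the table), CTTTGAT (in 2.62%), CTTTGTA (in 2.77%) and CTTTGTT (in 5.20%), and 13.8% held at least 1 of them. Matches were found in 2 of the 9 member promoters. The promoters of *WNT5A*, *WNT5B*, *SFRP2*, *FRZB* and *LEF1* held none of these letters. The *DKK1* promoter (chr10:52314031-52314330, plus strand) had the first and the last of these upstream of the start. The *WNT3* promoter (chr17:46818643-46818942, minus strand) had the last of these downstream of the start. Both are printed 5′ to 3′ on the strand of the gene, with the matches in capitals.
DKK1: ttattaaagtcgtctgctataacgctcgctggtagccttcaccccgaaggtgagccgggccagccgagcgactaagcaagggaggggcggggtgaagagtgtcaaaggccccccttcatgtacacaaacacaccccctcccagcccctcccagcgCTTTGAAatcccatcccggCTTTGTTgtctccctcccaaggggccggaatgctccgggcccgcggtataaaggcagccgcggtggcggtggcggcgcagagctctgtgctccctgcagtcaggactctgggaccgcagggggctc
WNT3: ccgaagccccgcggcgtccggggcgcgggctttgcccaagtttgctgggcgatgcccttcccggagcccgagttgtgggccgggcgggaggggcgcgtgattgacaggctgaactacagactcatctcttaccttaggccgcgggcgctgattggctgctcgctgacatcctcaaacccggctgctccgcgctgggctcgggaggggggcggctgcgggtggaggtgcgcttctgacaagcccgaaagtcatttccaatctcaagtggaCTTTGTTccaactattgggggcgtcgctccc
A match describes the letters in this window and was not tested as a site.

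Over the whole course, *SFRP2* rose from about 5 to over 100 CPM, and *WNT5A*, *WNT5B*, *DKK1* and *SFRP1* fell from their D0 levels. From D0 to D15, 8 of the 9 members tested were called, 4 higher and 4 lower. *WNT3*, *SFRP2*, *FRZB* and *FZD7* rose, *WNT5A*, *WNT5B*, *DKK1* and *SFRP1* fell, and *WNT11* was not called. In the same comparison 53.4% of all 12794 genes tested were called. The calls come from edgeR's quasi-likelihood test on pool sums, at an adjusted p (Benjamini-Hochberg) under 0.01 with the log2 fold change past 0.25. *LEF1*, with a UMI in 3.84% of the cells, was under the 5% that a gene needed to be tested. The p-values measure the spread between pools, 2 a day, and a pool sum cannot tell fewer cells of a type from less RNA per cell.

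Between consecutive days, most calls fell in the first steps when all pools were fitted together. From D0 to D3, 7 of the 9 tested members were called (25.6% of all genes): *WNT11* and *SFRP2* rose, and *WNT5A*, *WNT5B*, *DKK1*, *SFRP1* and *FZD7* fell. From D3 to D5, *WNT11*, *SFRP2* and *FRZB* rose, 3 of 9 against 3.56% of all genes. From D5 to D7 only *WNT3* of the 9 rose (2.06% of all genes). From D7 to D9 *WNT3* and *SFRP2* rose, 2 of 9 against 7.37% of all genes. The D0 to D3 step spans the change from the serum medium. The change to StemMACS iPSBrew XF came on D9, at the end of the D7 to D9 step. In the last 3 steps edgeR called 0 of the 9 members, where 4.09% of all genes were called from D9 to D11, 0.117% from D11 to D13 and 0.086% from D13 to D15. In these 3 steps 2, 5 and 6 members had an unadjusted edgeR p below 0.05, as did 3097, 2074 and 2962 of the 12794 genes tested. DESeq2 called 1, 2 and 4 members, but its calls over all genes were not recorded, so these counts have no background beside them. Neighbouring steps share the pools of the day between them and are not independent. When each step was fitted on its own 4 pools, edgeR called 0 members from D0 to D3, D3 to D5 and D5 to D7, and 1 from D9 to D11. Where a pool is left out of such a step, its day is a single pool that is assumed to vary like the other days.

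The mean of D9 to D15 was also set against the mean of D3 to D7, the days before and after the end of the transfections. Here 7 of the 9 tested members were called, against 43.5% of all genes. *WNT3*, *SFRP2* and *FZD7* were higher in the later days, *WNT5A*, *WNT5B*, *WNT11* and *SFRP1* were lower, and *DKK1* and *FRZB* were not called. Of these 7 calls, 6 held without any 1 pool.

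**Figure D1:**
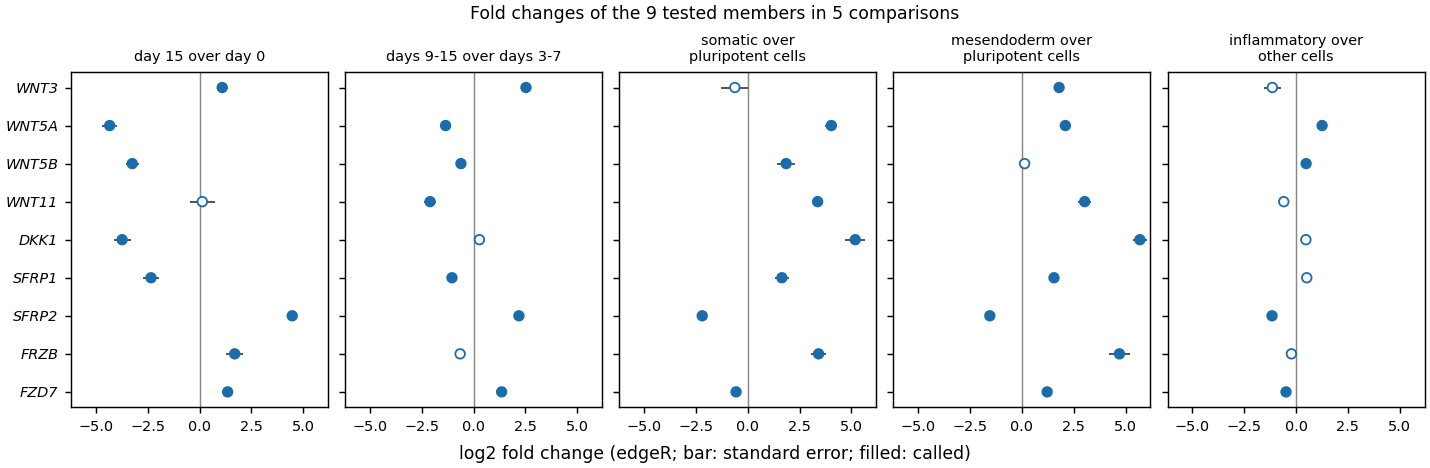
Log2 fold changes (horizontal axis, edgeR, with standard errors as bars) of the 9 tested members in 5 comparisons, one panel each; filled points were called. *SFRP2* lies at 4.47 from D0 to D15 and at −2.20 in somatic against pluripotent cells, and *DKK1* at −3.74 and 5.18.

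*WNT3* (ENSG00000108379, GRCh38 chromosome 17, 46762506 to 46833154, minus strand) had a UMI in 12.8% of all cells. In pools A and B it stood at 1.23 and 1.22 CPM on D0, 0.937 and 1.13 on D3, 0.703 and 0.539 on D5 and 2.37 and 1.55 on D7. It then stood at 10.4 and 15.1 CPM on D9, 10.2 and 11.2 on D11, 5.62 and 3.55 on D13 and 2.50 and 2.93 on D15. Both pools of D9 and both of D11 were above every pool of D0 to D7, and the D15 pools were lower again, yet above the D0 pools without overlap. From D5 to D7 *WNT3* rose (log2 fold change 1.64, standard error 0.29, adjusted p = 0.0064), a call lost without D5 A, D5 B or D7 A (adjusted p = 0.063 to 0.073). From D7 to D9 it rose (log2 fold change 2.66, standard error 0.27, adjusted p = 6.6e-05), and this call held without any 1 pool. The later days were higher than D3 to D7 (log2 fold change 2.52, standard error 0.16, adjusted p = 2.6e-08). Over the whole course *WNT3* rose (log2 fold change 1.09, standard error 0.27, adjusted p = 0.0035), and that call was lost without D0 A, D0 B or D15 B (adjusted p = 0.020 to 0.033).

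*WNT5A* (ENSG00000114251, chromosome 3, 55465715 to 55490539, minus strand) had a UMI in 45.7% of cells and its highest pool levels on D0. Its pools read 52.7 and 62.7 CPM on D0, 17.7 and 19.9 on D3, 34.3 and 30.6 on D5 and 10.96 and 25.1 on D7. Afterwards they read 10.8 and 11.2 CPM on D9, 13.8 and 19.95 on D11, 12.01 and 10.9 on D13 and 2.74 and 3.19 on D15. No later pool reached the D0 values, and D15 was the lowest day. *WNT5A* fell from D0 to D3 (log2 fold change −1.65, standard error 0.31, adjusted p = 0.0012), a call lost without D0 B (adjusted p = 0.0115) or D3 A (0.0108). The pools of D7 differed, at 10.96 and 25.1 CPM. Without D7 A, edgeR called a fall from D7 to D9 (log2 fold change −1.22, adjusted p = 0.0049), and without D7 B a fall from D5 to D7 (−1.56, adjusted p = 0.0045). In both fits D7 is a single pool, whose spread is assumed to be that of the other days. The level was lower in D9 to D15 than in D3 to D7 (log2 fold change −1.36, standard error 0.16, adjusted p = 1.2e-05) and lower on D15 than on D0 (log2 fold change −4.34, standard error 0.35, adjusted p = 3.0e-07).

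*WNT5B* (ENSG00000111186, chromosome 12, 1529891 to 1647212, plus strand), the closest relative of *WNT5A*, had a UMI in 36.5% of cells. It was measured at 23.4 and 26.1 CPM on D0, 13.2 and 9.57 on D3, 14.4 and 11.1 on D5 and 10.99 and 16.1 on D7. From D9 it was measured at 20.3 and 18.3 CPM on D9, 10.9 and 13.7 on D11, 9.82 and 5.54 on D13 and 2.11 and 3.27 on D15. Unlike for *WNT5A*, the D9 pools lay above all pools of D3 to D7. As for *WNT5A*, the 2 pools of D15 were the lowest of all 16. The fall from D0 to D3 (log2 fold change −1.16, standard error 0.27, adjusted p = 0.0052) was lost when each of the 4 pools in turn was left out (adjusted p = 0.010 to 0.036). *WNT5B* was lower in D9 to D15 than in D3 to D7 (log2 fold change −0.61, standard error 0.15, adjusted p = 0.0033), a call lost without D5 A, D7 B or D9 B (adjusted p = 0.0101 to 0.0162). From D0 to D15 it fell by 3.25 on the log2 scale (standard error 0.30, adjusted p = 1.2e-06), with no overlap of the pools. Both *WNT5A* and *WNT5B*, and *DKK1* as well, were called lower from D13 to D15 when D13 B was left out, with log2 fold changes of −1.88, −1.72 and −2.93 and adjusted p = 0.0093, 0.0061 and 0.00029. D13 is then pool A alone, and the other days supply the spread.

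*WNT11* (ENSG00000085741, chromosome 11, 76186325 to 76210736, minus strand) was sparse, with a UMI in 6.50% of cells, and peaked on D5. Its pools stood at 0.342 and 0.380 CPM on D0, 2.49 and 1.42 on D3, 17.9 and 6.01 on D5 and 2.63 and 5.19 on D7. Thereafter they stood at 1.15 and 1.22 CPM on D9, 1.53 and 1.88 on D11, 2.40 and 0.796 on D13 and 0.452 and 0.386 on D15. The D5 pools were the 2 highest of the series, and pool A held about 3 times the level of pool B. *WNT11* rose from D0 to D3 (log2 fold change 2.38, standard error 0.54, adjusted p = 0.0039) and again from D3 to D5 (log2 fold change 2.55, standard error 0.51, adjusted p = 0.0088). The first call was lost without D0 A, D0 B or D3 A (adjusted p = 0.023 to 0.039) and the second without D3 A, D3 B or D5 A (adjusted p = 0.022 to 0.116). It was lower in the later days than in D3 to D7 (log2 fold change −2.10, standard error 0.28, adjusted p = 2.9e-05), and D0 and D15 were not called apart (adjusted p = 0.86).

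**Figure D2:**
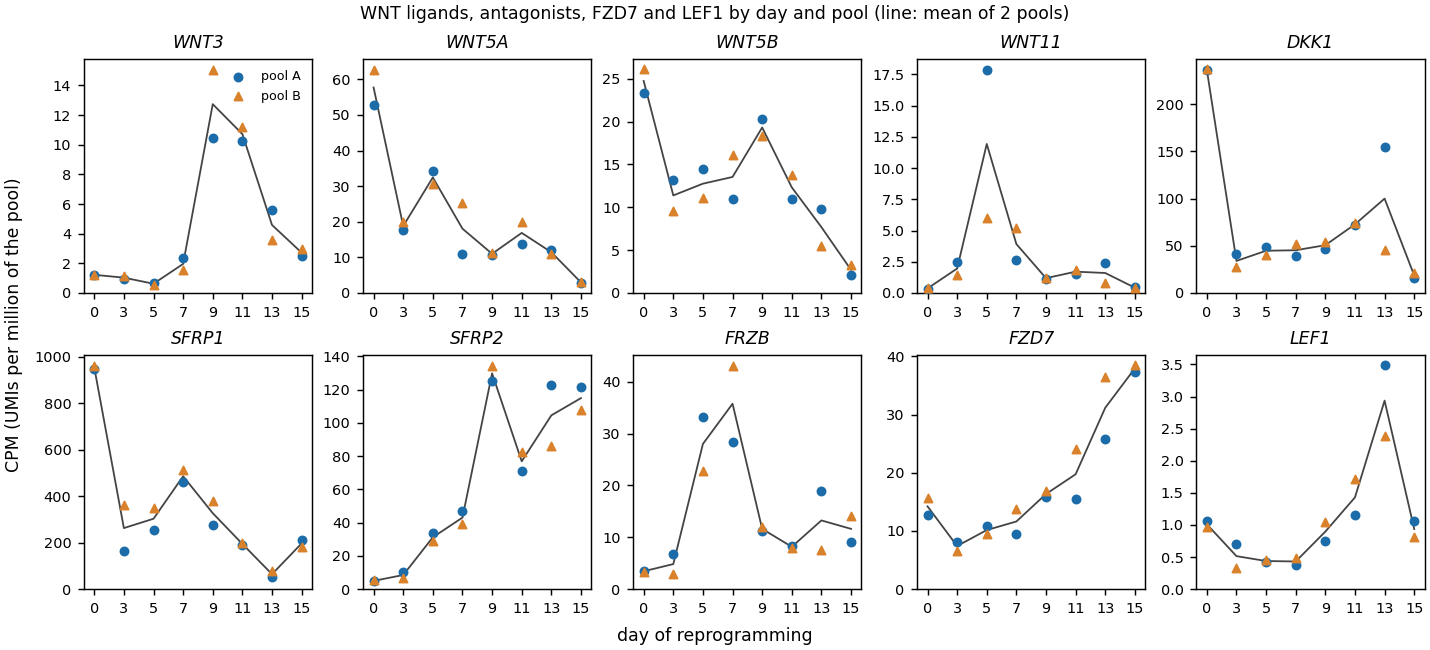
CPM (vertical axes from 0) of the 10 genes by day of reprogramming; circles are pool A, triangles pool B and lines the mean of the 2 pools. *WNT3* peaks on D9 and D11, *WNT11* on D5 and *FRZB* on D5 and D7, *SFRP2* and *FZD7* end high, and *WNT5A*, *DKK1* and *SFRP1* are highest on D0.

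*DKK1* (ENSG00000107984, chromosome 10, 52314281 to 52318042, plus strand), the antagonist whose promoter letters are printed above, had a UMI in 49.1% of cells. The pools gave 236 and 237 CPM on D0, 40.8 and 27.1 on D3, 49.1 and 40.4 on D5 and 38.8 and 51.8 on D7. They then gave 46.95 and 54.4 CPM on D9, 71.7 and 73.8 on D11, 155 and 45.5 on D13 and 16.4 and 20.7 on D15. Both D0 pools were above every later pool. The D13 pools were unlike each other, with A at 155 CPM and B at 45.5 CPM. *DKK1* fell from D0 to D3 (log2 fold change −2.84, standard error 0.39, adjusted p = 0.00016), and this call held without any 1 pool. It was lower on D15 than on D0 (log2 fold change −3.74, standard error 0.41, adjusted p = 4.9e-06). The later days were not called against D3 to D7 (log2 fold change 0.28, standard error 0.20, adjusted p = 0.26), although without D13 B they were called higher (log2 fold change 0.43, adjusted p = 0.0071).

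*SFRP1* (ENSG00000104332, chromosome 8, 41261962 to 41309473, minus strand) was detected in 91.2% of cells. Its level was 947 and 961 CPM on D0, 165 and 361 on D3, 255 and 351 on D5 and 459.6 and 512 on D7. On the later days it was 275 and 378 CPM on D9, 190.3 and 199 on D11, 51.1 and 77.2 on D13 and 212 and 181 on D15. The D13 pools were the lowest of the series, and the D15 pools lay above them without overlap. *SFRP1* fell from D0 to D3 (log2 fold change −1.87, standard error 0.36, adjusted p = 0.0015), which held without any 1 pool, and was lower in the later days than in D3 to D7 (log2 fold change −1.05, standard error 0.19, adjusted p = 0.00042). The step from D13 to D15 was not called (log2 fold change 1.61, standard error 0.36, adjusted p = 0.033). From D0 to D15 *SFRP1* fell by 2.34 on the log2 scale (standard error 0.37, adjusted p = 0.00012).

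*SFRP2* (ENSG00000145423, chromosome 4, 153780591 to 153789083, minus strand), a relative of *SFRP1* with the same Frizzled-like domain, ran the other way. It was found in 44.5% of cells. Its pools read 4.66 and 5.25 CPM on D0, 10.2 and 6.71 on D3, 33.5 and 28.9 on D5 and 46.9 and 39.1 on D7. They went on to read 125 and 134 CPM on D9, 71.3 and 82.4 on D11, 123 and 86.03 on D13 and 122 and 108 on D15. Every pool from D9 on was above every pool up to D7. *SFRP2* rose from D0 to D3 (log2 fold change 0.73, standard error 0.19, adjusted p = 0.0091), a call lost without D0 A, D0 B or D3 A (adjusted p = 0.041 to 0.085). It rose from D3 to D5 (log2 fold change 1.84, standard error 0.19, adjusted p = 8.8e-05) and from D7 to D9 (log2 fold change 1.55, standard error 0.19, adjusted p = 0.00020), and both calls held without any 1 pool. The rise over the whole course was the largest among the tested members (log2 fold change 4.47, standard error 0.22, adjusted p = 5.1e-09), and the later days exceeded D3 to D7 (log2 fold change 2.18, standard error 0.11, adjusted p = 3.0e-09).

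*FRZB* (ENSG00000162998, chromosome 2, 182833275 to 182866637, minus strand), found in 19.97% of cells, rose during the transfections. It stood at 3.59 and 3.30 CPM on D0, 6.76 and 2.90 on D3, 33.3 and 22.8 on D5 and 28.4 and 43.1 on D7. It then stood at 11.2 and 12.04 CPM on D9, 8.33 and 8.00 on D11, 18.9 and 7.57 on D13 and 9.10 and 14.1 on D15. All 4 pools of D5 and D7 were above all 12 others. The rise from D3 to D5 (log2 fold change 2.50, standard error 0.42, adjusted p = 0.0027) was lost without D3 B or D5 A (adjusted p = 0.023 to 0.025). The step from D7 to D9 was not called (log2 fold change −1.66, standard error 0.41, adjusted p = 0.016). *FRZB* was higher on D15 than on D0 (log2 fold change 1.70, standard error 0.41, adjusted p = 0.0029), a call lost without D0 A, D0 B or D15 B (adjusted p = 0.019 to 0.034). The later days were not called against D3 to D7 (log2 fold change −0.65, standard error 0.21, adjusted p = 0.020), but were called lower without D3 B (log2 fold change −0.80, adjusted p = 0.0035) or without D13 A (−0.82, adjusted p = 0.0027).

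*FZD7* (ENSG00000155760, chromosome 2, 202033855 to 202038441, plus strand), a Frizzled receptor known to be abundant in human pluripotent cells, had a UMI in 40.4% of cells. The pools stood at 12.8 and 15.7 CPM on D0, 8.18 and 6.63 on D3, 10.8 and 9.47 on D5 and 9.53 and 13.7 on D7. They later stood at 15.8 and 16.9 CPM on D9, 15.5 and 24.01 on D11, 25.9 and 36.5 on D13 and 37.3 and 38.6 on D15. Both pools of D13 and both of D15 were above all others. *FZD7* fell from D0 to D3 (log2 fold change −0.98, standard error 0.26, adjusted p = 0.0097), a call lost when each of the 4 pools in turn was left out (adjusted p = 0.024 to 0.074). None of the later steps was called by itself, while D9 to D15 exceeded D3 to D7 (log2 fold change 1.35, standard error 0.14, adjusted p = 4.4e-06) and D15 exceeded D0 (log2 fold change 1.35, standard error 0.26, adjusted p = 0.00055).

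*LEF1* (ENSG00000138795, chromosome 4, 108047545 to 108168956, minus strand) was the rarest member, with 2009 UMIs in 1611 cells. In GENCODE its exons overlap those of the antisense gene *LEF1-AS1*, which was not among the genes counted. *LEF1* measured 1.06 and 0.965 CPM on D0, 0.703 and 0.324 on D3, 0.422 and 0.453 on D5 and 0.371 and 0.490 on D7. It went on to measure 0.744 and 1.05 CPM on D9, 1.15 and 1.71 on D11, 3.49 and 2.39 on D13 and 1.05 and 0.818 on D15. The D13 pools were the 2 highest of all. When every gene was fitted whatever its detection, *LEF1* was higher in the later days than in D3 to D7 (log2 fold change 1.43, standard error 0.20, adjusted p = 6.5e-07, 35.5% of all genes called) and fell from D13 to D15 (log2 fold change −1.79, standard error 0.36, adjusted p = 0.0034, 1.81% of all genes called). Of the 531 genes called from D13 to D15 in that fit, 508 fell. The D15 pools held 35 and 53 *LEF1* UMIs. D15 and D0 were not called apart (adjusted p = 0.38).

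The share of cells that held a UMI, after each cell had been thinned to 5000 UMIs, gives these genes cell by cell (mean ± SD, n = 2 pools). *SFRP1* was found in 93.9% ± 0.110 of the D0 cells, 23.7% ± 4.75 of the D13 cells and 45.97% ± 1.61 of the D15 cells. *DKK1* was found in 50.5% ± 0.484 on D0 and 4.27% ± 1.34 on D15, and *WNT5A* in 23.4% ± 1.81 and 1.54% ± 0.441. For all 3 genes fewer of the D15 cells than of the D0 cells held a UMI. *SFRP2* was found in 2.23% ± 0.258 on D0, 36.7% ± 2.07 on D9 and 40.1% ± 0.563 on D15. *WNT3* was found in 0.779% ± 0.536 on D7, 5.31% ± 0.530 on D9 and 1.33% ± 0.397 on D15. *WNT11* was found in 5.57% ± 4.05 on D5, and *FRZB* in 15.2% ± 2.77 on D7. These shares depend on the UMIs per cell. *WNT5A* on D0 was found in 38.2% and 41.7% of cells at 10000 UMIs and in 63.4% and 71.6% without thinning, and on D15 without thinning in 7.53% and 6.02%. *SFRP2* without thinning was found in 6.24% and 7.08% on D0 and in 88.1% and 82.4% on D15.

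The cells of D9 to D15 were then divided by markers that include none of the 10 genes. A cell counted as pluripotent-like where its 12 pluripotency markers (such as *L1TD1*, *DPPA4*, *TDGF1*) together reached at least the level of its 11 somatic markers, both in CPM with 50 added, as somatic-like where the somatic sum was above the pluripotency sum by at least 3 on the log2 scale, and as lying between otherwise. A cell whose 12 mesendoderm markers (such as *EOMES*, *CER1*, *MIXL1*, *GATA6*) summed to at least 500 CPM counted as mesendoderm-like first. These limits were set after the cells had been seen. There were 9854 pluripotent-like, 4282 somatic-like, 2750 intermediate and 841 mesendoderm-like cells. Pluripotent-like cells made up 40.8% and 47.0% of D9 A and B, 35.2% and 47.3% on D11, 58.8% and 68.5% on D13 and 85.1% and 80.7% on D15. Somatic-like cells made up 30.4% and 22.2% on D9, 35.9% and 36.7% on D11, 29.6% and 12.5% on D13 and 8.23% and 8.06% on D15, so the pools of D13 differed in this class, as they did in the *DKK1* level. The mesendoderm-like cells were 6 and 7 cells on D9 and 4.203% to 7.004% of a pool later, with 24 cells in D15 A as the smallest class sum used. The classes are ranges rather than types, and 10.8% of the late cells would change class with stricter limits and 11.7% with looser ones.

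The mesendoderm markers summed to 888 to 3654 CPM in the mesendoderm-like class and to 12.8 to 69.1 CPM in the pluripotent-like one. The mesendoderm-like cells also held 865 to 1812 CPM of the pluripotency list and 656 to 1821 CPM of the somatic list, and the latter overlapped the 516 to 1355 CPM of the pluripotent-like cells. Trophoblast markers reached 10.9 to 282 CPM in pluripotent-like cells and inflammatory markers 50.9 to 1095 CPM in somatic-like cells, highest in D9 A. The part of these other markers in the results was not tested. Doublets were not removed. Class sums were compared with the pool as a block, over 8 pools for somatic-like and 6 pools (D11 to D15) for mesendoderm-like cells.

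Somatic-like cells had higher levels of *WNT5A*, *WNT5B*, *WNT11*, *DKK1*, *SFRP1* and *FRZB*, and pluripotent-like cells of *SFRP2* and *FZD7*. In all, 8 of the 9 tested members were called between these classes, 6 higher and 2 lower in somatic-like cells, where 71.1% of all genes were called. *WNT3* was not called. Mesendoderm-like cells differed from pluripotent-like ones in 8 of 9 members, where 39.8% of all genes were called: *WNT3*, *WNT5A*, *WNT11*, *DKK1*, *SFRP1*, *FRZB* and *FZD7* were higher, *SFRP2* was lower and *WNT5B* was not called. Both comparisons use pluripotent-like cells of the same pools. Without D11 A and D13 B, edgeR called 7 members for somatic-like and 8 for mesendoderm-like cells. The call lost was that of *WNT5B* (log2 fold change 1.81, adjusted p = 0.020), and the 8 calls for mesendoderm-like cells were of the same genes. Without a block for the pool it called 6 and 6.

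*DKK1* had the largest fold changes between classes among the tested members. In pluripotent-like cells of pools A and B it read 4.98 and 5.33 CPM on D9, 12.3 and 2.83 on D11, 4.24 and 8.83 on D13 and 1.03 and 2.57 on D15. In somatic-like cells it read 159.7 and 209.9 CPM on D9, 123 and 169.8 on D11, 466 and 85.7 on D13 and 167 and 96.4 on D15. In mesendoderm-like cells it read 349.9 and 189.8 CPM on D11, 647 and 299.6 on D13 and 108 and 101.1 on D15. The classes did not overlap, since every somatic-like and mesendoderm-like sum lay above every pluripotent-like one, in the same pools. The log2 fold change was 5.18 for somatic-like cells (standard error 0.49, adjusted p = 4.3e-06) and 5.69 for mesendoderm-like cells (standard error 0.35, adjusted p = 1.5e-05). Without D11 A and D13 B, the pools with the highest *COL1A1* shares, they were 5.83 and 6.19. The 155 CPM of D13 pool A, seen above, came with 466 CPM in its somatic-like and 647 CPM in its mesendoderm-like cells, the highest of each class, and 4.24 CPM in its pluripotent-like cells.

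*FRZB* was highest in the mesendoderm-like cells of D13 and D15. Its pluripotent-like sums ran from 1.34 to 3.78 CPM (median 2.22) and its somatic-like sums from 13.3 to 46.2 CPM (median 17.5). In mesendoderm-like cells it read 14.6 and 25.2 CPM on D11, 131 and 48.98 on D13 and 159.9 and 179 on D15. On D13 and D15 these sums were above every pluripotent-like and somatic-like sum. Against pluripotent-like cells the mesendoderm-like class was higher (log2 fold change 4.70, standard error 0.50, adjusted p = 0.00012), as was the somatic-like class (log2 fold change 3.42, standard error 0.35, adjusted p = 7.6e-06), and without D11 A and D13 B the log2 fold changes were 5.43 and 3.79. Mesendoderm-like cells held 0.232% to 65.9% of all *FRZB* UMIs of a pool, with 65.9% and 65.5% on D15, while they held 0.34% to 5.33% of the UMIs of all genes.

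*SFRP1* and *SFRP2* differed in opposite directions between pluripotent-like cells and both somatic-like and mesendoderm-like cells. In pluripotent-like cells *SFRP1* read 95.3 and 136 CPM on D9, 63.2 and 58.3 on D11, 23.2 and 51.5 on D13 and 198 and 157 on D15. In somatic-like cells it read 408 and 567 CPM on D9, 315 and 393 on D11, 103 and 147 on D13 and 195 and 184 on D15, so that both classes stood at similar levels on D15. In mesendoderm-like cells it read 118 and 139 CPM on D11, 119 and 187 on D13 and 636 and 572 on D15, and the D15 sums were the highest of these 3 classes. In intermediate cells it read 451.7 and 686.8 CPM on D9, and the sum of D9 B was above every sum of the other classes. The intermediate sums lay above the somatic-like ones on D9 and D13 and in D11 B and D15 B. In D11 A the intermediate sum lay below, at 299.2 against 315 CPM. Against pluripotent-like cells, *SFRP1* was higher in somatic-like (log2 fold change 1.64, standard error 0.33, adjusted p = 0.00093) and in mesendoderm-like cells (log2 fold change 1.55, standard error 0.16, adjusted p = 0.00012). *SFRP2* read 174 and 178 CPM on D9, 100.6 and 113 on D11, 167 and 102 on D13 and 137 and 121 on D15 in pluripotent-like cells. It ran from 14.3 to 40.6 CPM (median 29.9) in somatic-like and from 30.5 to 58.7 CPM (median 42.5) in mesendoderm-like sums of D11 to D15, with no overlap with the pluripotent-like sums. It was lower in both (somatic-like, log2 fold change −2.20, standard error 0.14, adjusted p = 4.2e-07, and mesendoderm-like, log2 fold change −1.55, standard error 0.16, adjusted p = 0.00012).

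**Figure D3:**
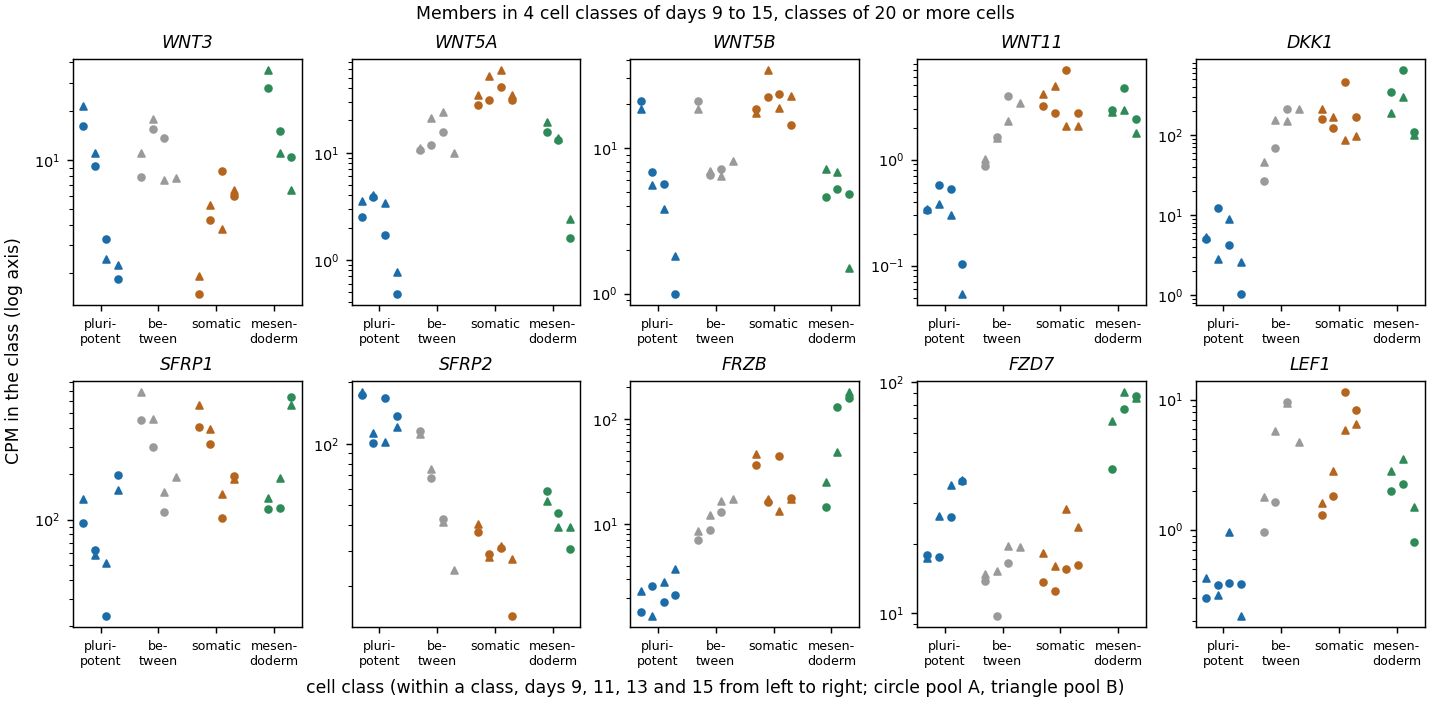
CPM of the 10 genes (log axis) in pluripotent-like, intermediate, somatic-like and mesendoderm-like cells; each point is the sum of a class in a pool with at least 20 cells of it, with D9, D11, D13 and D15 from left to right, circles for pool A and triangles for pool B. *DKK1* and *FRZB* lie lowest in pluripotent-like cells, and *SFRP2* lies highest there within each pool.

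In mesendoderm-like cells *WNT3* read 27.9 and 35.8 CPM on D11, 15.1 and 11.1 on D13 and 10.4 and 6.56 on D15. In 5 of these 6 pools it was higher there than in any other class. In D15 B the intermediate cells stood above, at 7.75 CPM. In pluripotent-like cells it read 16.2 and 21.5 CPM on D9, 9.20 and 10.98 on D11, 3.25 and 2.47 on D13 and 1.86 and 2.26 on D15. In somatic-like cells it read 1.5 and 1.92 CPM on D9, 4.24 and 5.26 on D11, 8.54 and 3.75 on D13 and 6.02 and 6.50 on D15. The pluripotent-like values were lower on each later day, and from D13 on every somatic-like sum exceeded the pluripotent-like sum of its pool, while on D9 and D11 it was below it. Somatic-like cells were not called (log2 fold change −0.63, standard error 0.65, adjusted p = 0.39) over the 8 pools, and mesendoderm-like cells were higher (log2 fold change 1.79, standard error 0.14, adjusted p = 2.8e-05). Of the *WNT3* UMIs of a pool, 38.5% to 74.1% (median 60.5%) lay in pluripotent-like cells, and these held 44.3% to 87.5% (median 61.8%) of the UMIs of all genes. The order of the 2 shares turned with the days. On D9 the *WNT3* share was the higher, at 72.3% and 74.1% against 46.4% and 51.9%. In each pool of D11 to D15 it was the lower, on D15 at 65.1% and 65.8% against 87.5% and 85.3%.

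*WNT5A*, *WNT5B* and *WNT11* were lower in pluripotent-like than in somatic-like cells. *WNT5A* ran from 0.482 to 4.03 CPM (median 2.95) there, from 28.2 to 58.9 CPM (median 34.5) in somatic-like and from 1.61 to 19.3 CPM (median 13.4) in mesendoderm-like cells, where the D15 sums of 1.61 and 2.39 CPM were the lowest. It was higher in somatic-like (log2 fold change 4.03, standard error 0.30, adjusted p = 8.4e-07) and in mesendoderm-like cells (log2 fold change 2.09, standard error 0.17, adjusted p = 3.7e-05). *WNT5B* read 20.9 and 18.6 CPM on D9, 6.83 and 5.60 on D11, 5.66 and 3.79 on D13 and 0.999 and 1.83 on D15 in pluripotent-like cells and from 14.3 to 34.1 CPM (median 20.6) in somatic-like sums. The pluripotent-like sums lay just above the somatic-like ones on D9, and on D15 the somatic-like sums lay above. *WNT5B* was higher in somatic-like cells (log2 fold change 1.85, standard error 0.44, adjusted p = 0.0029), a call lost without D11 B (adjusted p = 0.0129) or D13 A (adjusted p = 0.0110). *WNT11* ran from 0.0543 to 0.577 CPM (median 0.339) in pluripotent-like, from 2.06 to 6.96 CPM (median 3.00) in somatic-like and from 1.79 to 4.71 CPM (median 2.87) in mesendoderm-like sums, and was higher in both latter classes (log2 fold changes 3.37 and 3.03, adjusted p = 1.2e-06 and 0.00010). In all, these sums held only 186, 680 and 96 *WNT11* UMIs.

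*FZD7* read 17.9 and 17.3 CPM on D9, 17.5 and 26.3 on D11, 26.2 and 35.9 on D13 and 37.4 and 37.6 on D15 in pluripotent-like cells. In somatic-like cells it ran from 12.5 to 28.4 CPM (median 16.1) and was lower (log2 fold change −0.57, standard error 0.12, adjusted p = 0.0016), in 7 of the 8 pools. In D9 B the somatic-like sum was the higher, at 18.2 against 17.3 CPM. In mesendoderm-like cells it read 42.2 and 67.9 CPM on D11, 76.4 and 90.3 on D13 and 87.6 and 85.02 on D15 and was higher in all 6 pools (log2 fold change 1.22, standard error 0.07, adjusted p = 8.7e-06). Of the *FZD7* UMIs of a pool, 50.1% to 87.7% (median 64.9%) lay in pluripotent-like cells, close to the 44.3% to 87.5% (median 61.8%) of the UMIs of all genes. *LEF1* ran from 0.217 to 0.957 CPM (median 0.377) in pluripotent-like cells. In somatic-like cells it read 1.31 and 1.62 CPM on D9, 1.83 and 2.81 on D11, 11.4 and 5.88 on D13 and 8.33 and 6.50 on D15, higher on D13 and D15 than on D9 and D11. *LEF1* in intermediate cells was 0.955 and 1.77 CPM on D9, 1.65 and 5.75 on D11, 9.65 and 9.47 on D13 and 4.74 in D15 B. These sums lay above the somatic-like ones in D9 B, D11 B and D13 B, and below them in D9 A, D11 A, D13 A and D15 B. In mesendoderm-like cells *LEF1* ran from 0.803 to 3.52 CPM (median 2.12), from only 80 UMIs in all, 1 of them in D15 A. With all genes fitted, *LEF1* was higher in somatic-like cells (log2 fold change 3.19, standard error 0.37, adjusted p = 6.6e-06, 44.3% of all genes called) and in mesendoderm-like cells (log2 fold change 2.18, standard error 0.30, adjusted p = 7.4e-05, 24.3% of all genes called).

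**Figure D4:**
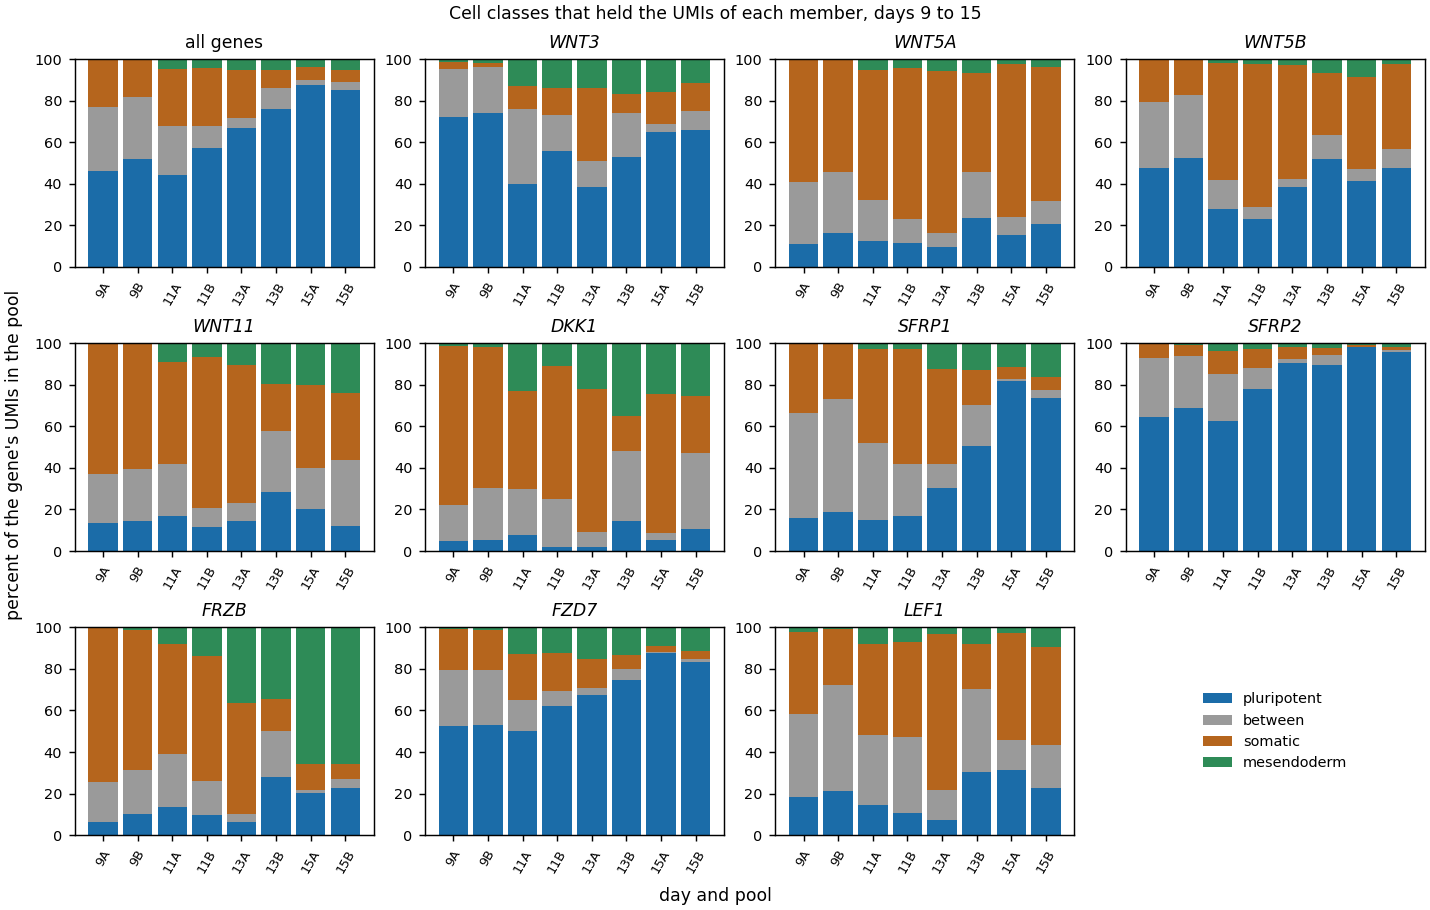
Percent of the UMIs of each gene in a pool (vertical axis, 0 to 100) that lay in each of the 4 cell classes, by day and pool from D9 to D15, with the UMIs of all genes for comparison. On D15 mesendoderm-like cells held 65.9% and 65.5% of the *FRZB* UMIs. The somatic-like share of the *DKK1* UMIs ran from 16.6% in D13 B to 76.5% in D9 A over the 8 pools (median 65.2%) and was 66.5% and 27.7% on D15.

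At 5000 UMIs per cell, *SFRP2* had a UMI in 40.1% to 54.7% of the pluripotent-like and 4.26% to 14.7% of the somatic-like cells of a pool. *DKK1* had a UMI in 1.03% to 5.53% of pluripotent-like, 12.4% to 26.04% of somatic-like and 16.7% to 41.01% of mesendoderm-like cells (D11 to D15). *FRZB* was found in 5.04% to 50.7% of mesendoderm-like and 0.773% to 1.94% of pluripotent-like cells. For comparison with class markers, *COL1A1* had a UMI in 18.2% to 73.2% of pluripotent-like cells and 92.2% to 100% of somatic-like ones. *POU5F1* had one in 63.8% and 67.6% of the somatic-like cells of D11 A and D13 B, in 34.04% and 55.3% of those of D15 and in 9.07% to 17.98% elsewhere. *CER1* had one in 8.57% and 8.45%, in 8.51% and 5.29%, and in at most 1.47%. By *CER1* the D15 pools thus stood nearer to D11 A and D13 B, and by *POU5F1* they lay between these and the rest. D15 A had only 47 somatic-like cells, with 95% intervals of 20.9% to 49.3% for *POU5F1* and 2.37% to 20.4% for *CER1*. By *COL1A1* in pluripotent-like cells, at 20.8% and 34.2%, the D15 pools stood with the others. The D15 pools were left out only singly, and no call between classes was lost without either. Free RNA, doublets and cells in transition were not told apart as sources of these UMIs, in D11 A and D13 B as in the other pools, so low shares here are not read as expression. The *DKK1* shares of D11 A and D13 B, 5.53% and 4.34% of pluripotent-like cells, were the highest of that class, and the other 6 pools lay at 1.03% to 2.19%. Before thinning, the median cell of a pool held 31528.5 to 72241.5 UMIs in the pluripotent-like, 21143 to 50702 in the somatic-like and 22129 to 68115 in the mesendoderm-like class.

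Among the cells of D3 to D7, 598 held chemokine and *IL1B* transcripts at 1000 CPM or more (*CXCL1*, *CXCL2*, *CXCL3*, *CXCL5*, *CXCL6*, *CXCL8*, *IL1B*), a limit also set after the cells had been seen, and 12874 did not. These cells, called inflammatory from their markers alone, made up 1.11% to 15.0% of a pool, most on D5. The 7 markers summed to 1883 to 4545 CPM in them and to 40.9 to 139 CPM in the other cells. Their somatic list stood at 7946 to 12023 CPM, against 4165 to 8856 CPM in the other cells, and their pluripotency list at 4.62 to 147 CPM against 44.1 to 489 CPM, and the part of these lists in the results was not tested. A stricter limit would move 1.97% of the D3 to D7 cells and a looser one 3.14%.

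In these cells *WNT5A* and *WNT5B* were higher and *SFRP2* and *FZD7* lower than in the other cells of the same pools, 4 of the 9 tested members, where 34.8% of all genes were called. *WNT5A* read 35.8 and 41.8 CPM on D3, 60.03 and 65.5 on D5 and 34.8 and 51.8 on D7 in inflammatory cells. In the other cells it read 17.4 and 19.7 CPM on D3, 30.8 and 27.9 on D5 and 10.5 and 23.95 on D7. It was higher in all 6 pools (log2 fold change 1.25, standard error 0.09, adjusted p = 2.7e-08). *WNT5B* read 20.8 and 14.7 CPM on D3, 18.7 and 14.4 on D5 and 12.1 and 19.4 on D7 in inflammatory cells and 13.1 and 9.52 CPM on D3, 13.8 and 10.8 on D5 and 10.97 and 15.95 on D7 in the others (log2 fold change 0.48, standard error 0.10, adjusted p = 0.00077), and was higher in all 6 pools. *SFRP2* read 6.36 and 10.3 CPM on D3, 16.1 and 10.4 on D5 and 14.1 and 15.8 on D7 in inflammatory cells. In the others it read 10.3 and 6.68 CPM on D3, 35.9 and 30.3 on D5 and 47.5 and 40.2 on D7, with D3 B as the pool in which the order was turned (log2 fold change −1.16, standard error 0.16, adjusted p = 2.0e-05). *FZD7* was lower (log2 fold change −0.49, standard error 0.14, adjusted p = 0.0080), a call lost without D3 A, D5 A, D5 B or D7 A (adjusted p = 0.013 to 0.071).

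*SFRP1* read 371 and 828 CPM on D3, 306 and 448 on D5 and 419 and 437 on D7 in inflammatory cells and 161 and 357 CPM on D3, 248 and 343 on D5 and 460.5 and 515 on D7 in the others. It lay above in the 4 pools of D3 and D5 and below in the 2 of D7 (log2 fold change 0.51, standard error 0.15, adjusted p = 0.0101, not called), and it was called higher without D7 A (log2 fold change 0.64, adjusted p = 0.0017) or D7 B (0.65, adjusted p = 0.0022). *DKK1* ran from 26.4 to 147 CPM (median 44.96) in inflammatory and from 27.1 to 50.7 CPM (median 40.4) in other cells and was not called (log2 fold change 0.47, standard error 0.20, adjusted p = 0.064). Its highest sum was that of D7 B, and it was called higher without D5 A (log2 fold change 0.70, adjusted p = 0.0057). *WNT3*, *WNT11*, *FRZB* and, with all genes fitted, *LEF1* were not called. *WNT3* stood at 0 to 0.799 CPM in the inflammatory cells. DESeq2 called 2 of the 9 members in this comparison and a fit without the pool block called 1.

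**Figure D5:**
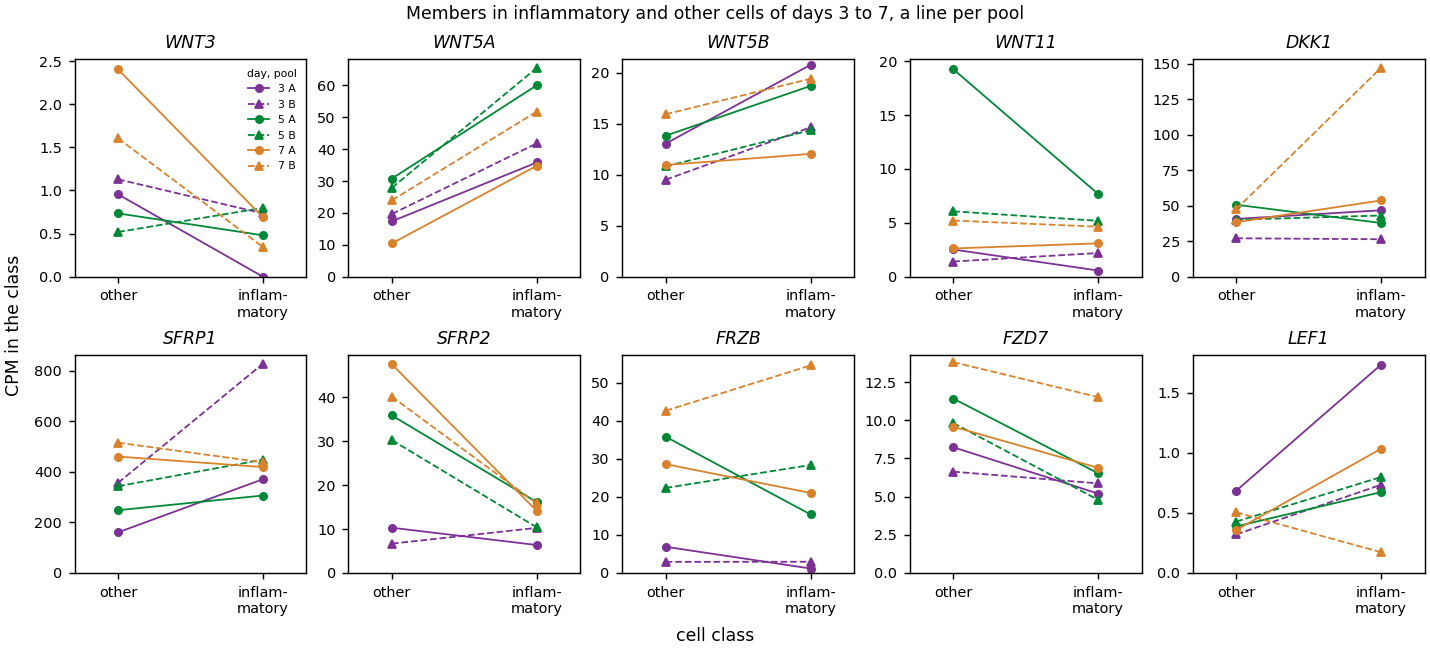
CPM of the members (vertical axes from 0) in inflammatory cells and in the other cells of D3, D5 and D7; each line joins the classes of a pool, solid for pool A and dashed for pool B. The *WNT5A* lines rise in all 6 pools, and the *SFRP2* lines of D5 and D7 fall.

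The rest of the pathway was read from lists of its parts, in which the members are included. From D0 to D15, where 53.4% of all tested genes were called, 6 of the 19 WNT ligands were tested, of which 1 rose and 3 fell (median log2 fold change −2.40). Of 16 extracellular antagonists, a list that also holds the membrane-bound *APCDD1*, 9 were tested, 4 rose and 5 fell (median −2.34), among them *APCDD1* from a mean of 109 to 0.764 CPM, log2 fold change −7.17, adjusted p = 4.7e-07, and *DKK3*, a DKK relative (log2 fold change −3.99, adjusted p = 5.7e-05). The median over all tested genes was 0.0099. Of 17 receptors 15 were tested, 8 rose and 4 fell (median 1.35). The Frizzled receptor *FZD5* went from 0.118 to 34.4 CPM, log2 fold change 8.11, adjusted p = 1.8e-09, and *FZD3* from 0.387 to 24.2 CPM, log2 fold change 5.91, adjusted p = 2.1e-08. The Frizzleds *FZD1* and *FZD2* fell (log2 fold change −3.54, adjusted p = 1.3e-05, and log2 fold change −2.47, adjusted p = 8.3e-05). *FZD7*, described above, was among the 8 receptors that rose.

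Both tested genes of the R-spondin list (9 genes) rose, *LGR4*, an R-spondin receptor (log2 fold change 0.98, adjusted p = 0.0095), and *ZNRF3*, a ubiquitin ligase that removes Frizzleds (log2 fold change 2.70, adjusted p = 9.7e-06), with a list median of 1.84. *WLS*, which carries WNTs to the cell surface, fell from 86.5 to 16.99 CPM, log2 fold change −2.41, adjusted p = 7.8e-06, and the other of the 2 processing genes was not called (median −1.08). Of the 10 cytoplasmic genes, all tested, *AXIN1* rose (log2 fold change 2.35, adjusted p = 1.7e-06) and *GSK3B* fell (log2 fold change −0.56, adjusted p = 0.0093), both parts of the complex that degrades β-catenin (median −0.27). Of the 8 nuclear factors, the list of *LEF1*, 7 were tested, 2 rose and 1 fell (median 0.23). *TCF7L1*, a TCF factor known as a repressor, went from 12.5 to 103 CPM, log2 fold change 2.98, adjusted p = 5.9e-05, and *TCF7L2* rose (log2 fold change 1.24, adjusted p = 0.0046). Of 12 common targets of canonical signalling, 5 were tested. *AXIN2* (log2 fold change 2.03, adjusted p = 1.8e-05) and *ZNRF3* rose, and *DKK1*, *TNFRSF19* (log2 fold change −4.04, adjusted p = 4.1e-07) and *CCND1* fell (median −1.10).

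After against during the transfections, where 43.5% of all tested genes were called and the median over all of them was −0.024, 1 of the 6 tested ligands was higher and 3 were lower (median −0.62), and 1 of the 9 antagonists was higher and 4 lower (median −0.65). The ligand that was higher was *WNT3* and the antagonist *SFRP2*. *APCDD1* and *IGFBP4*, an IGF-binding protein that also binds Frizzleds, were lower (log2 fold change −3.60, adjusted p = 9.7e-08, and log2 fold change −1.44, adjusted p = 0.00060). Of the 15 tested receptors 7 were higher and 1 lower (median 0.21), with *FZD5* from 1.83 to 26.6 CPM, log2 fold change 3.81, adjusted p = 2.9e-10 and the DKK co-receptor *KREMEN2* (log2 fold change 3.34, adjusted p = 1.2e-07). These CPM are plain means over pools, while a fold change compares the days on the log2 scale with equal weight. Of the 2 tested genes of the R-spondin list, 1 was higher (median 0.64), and *WLS* was lower (log2 fold change −1.12, adjusted p = 2.0e-05, median of the 2 processing genes −0.58). None of the 10 cytoplasmic genes was called by edgeR (median −0.06). Of the nuclear factors 2 were higher, *TCF7L1* (log2 fold change 0.84, adjusted p = 0.0059) and *BCL9* (log2 fold change 0.79, adjusted p = 0.0018), and 1 was lower (median 0.30). Of the 5 tested targets, 2 were higher and 2 lower (median 0.28). These lists were chosen with results of these data known, and their counts are descriptions.

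The genes whose levels followed each member most closely were sought by Pearson's r of log2(CPM + 1) over the 16 pools, among 11069 genes at 5 CPM or more in at least 2 pools. The points share the course of the days, so these values describe these pools and carry no test. For *SFRP2* they were *N4BP3*, *CALB1* and *TDRP* (r of 0.98 each), and for *WNT5A* *DLC1* (0.98), *TMEM87B* (0.97) and *RUNX1* (0.96). *FZD7* was followed by *TBC1D16* (0.97), *CECR1* and *TRIM6* (0.96 each), *WNT3* by *NRK*, *BAIAP2L2* and *JADE2* (0.96 each), and *WNT5B* by *C9orf3*, *SSFA2* (0.96 each) and *PLAT* (0.94). *DKK1* was nearest to *GANC* (0.95), *GPX8* and *RBMS2* (0.92 each). The other 4 members had lower values, led by *HS3ST3A1* for *WNT11* (0.91, then *MGP* at 0.90 and *SPRED2* at 0.89), *KCNE5* for *FRZB* (0.90, then *TSPAN15* at 0.88 and *COL5A3* at 0.87), *SOS1* for *SFRP1* (0.89, with *CCDC57* and *UBE2R2* at 0.89) and *IDH1* for *LEF1* (0.87, with *PGM1* and *BTD* at 0.86). Between members, *WNT5A* and *WNT5B* had r of 0.81, *WNT11* and *FRZB* 0.71, *WNT5A* and *WNT5B* each with *DKK1* 0.71, *WNT3* and *SFRP2* 0.70, and *WNT5A* and *SFRP2* −0.75.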

How the data were processed

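The deposited tables held whole-number UMI counts per gene and cell, which the authors made with Cell Ranger 2.2 according to the submitters' processing notes, on the GRCh38 build. The 22 libraries were joined into 16 pools, 6 of them with 2 aliquots. Groups came from the sample labels. Cells under 1000 detected genes or over 10% mitochondrial UMIs were dropped, counts were summed per pool, and printed CPM are UMIs per 1000000 UMIs of a pool or class sum. Genes with a UMI in at least 5% of the cells (12794 genes) were tested in 1 fit of all 16 pools with edgeR 4.0.16 (R 4.3.3, quasi-likelihood test, TMM, Benjamini-Hochberg adjustment), so fold changes carry the TMM scaling and CPM do not. Class sums were fitted with the pool as a block. The fits were tested on simulated data. Alternatives included DESeq2 1.42.0, other filters, other class limits and leaving out each pool. The gene lists, the 10 members and the classes were chosen with earlier results of these data known, and the class limits and the removal of *MMP1* and *MMP3* from the inflammatory markers followed a look at the cells. Named genes were all 10 members, at most 2 called genes in each direction per pathway list at 5 CPM or more, and the 3 genes most alike to each member. Of 13 pluripotency markers 12 were found in the tables. The deviations of pools with the same letter had r from −0.45 to 0.84 over 28 pairs of days (median 0.0027), so not every pair deviated together and the letter was not used as a pairing. Cells in shared aliquots or pools are not replicates, and doublets were not called. Intervals cover counting error only. Gene positions are from GENCODE 44.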

Additional observations from a re-analysis of the deposited data

How the results depend on the processing

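With the pool letter as a replicate block, a pairing that the labels do not give a meaning, the counts of members called were 7, 3, 1, 2, 0, 0 and 0 for the 7 steps between days, 8 from D0 to D15 and 7 for the later days against D3 to D7, as without it. Fitting only the pools of the days compared gave 0 in each of the first 3 steps and 1 from D9 to D11, with fewer pools to estimate the spread. Drawing 2500 random cells per day gave 0 from D5 to D7. With no filter on genes the counts were 4 from D7 to D9, 1 from D11 to D13 and 5 from D13 to D15. An adjusted p below 0.05 at any fold gave 4, 1, 2 and 4 in the last 4 steps (D7 to D9, D9 to D11, D11 to D13, D13 to D15), as did DESeq2. The share of all genes called was not recorded for these 2 settings, so their counts describe the members alone. For inflammatory cells DESeq2 gave 2 and the fit with no replicate block 1. Leaving out 1 pool gave 2 to 5 calls from D0 to D3, 1 to 3 from D3 to D5, 0 to 2 from D5 to D7, 2 to 3 from D7 to D9, 0 from D9 to D11 and from D11 to D13, 0 to 3 from D13 to D15, 6 to 8 from D0 to D15, 6 to 8 for the later days, 7 to 8 for somatic-like, 8 for mesendoderm-like and 3 to 5 for inflammatory cells. Of 1395 fitted log2 fold changes 28 changed sign, and none of these 28 was called by edgeR or DESeq2 in the main or the other setting. The class fits with no filter on genes and those without D11 A and D13 B were added after seeing the data. Taken at 10000 UMIs per cell and without thinning, 156 values of the mean share of cells with a UMI moved by 1 SD (of 2 pools) or more and 4 did not. Such shares depend on the UMIs kept per cell by construction. The cause of the other differences between settings was not tested. Limits are 2 pools a day of 1 cell line, class limits set on these cells, and low counts of *LEF1* and *WNT11*.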
